A study of Mus musculus with 2 samples.

Results

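The genes described here build glycosaminoglycans, the sulphated sugar chains of cartilage proteoglycans, and supply their sulphate and sugar donors. The 41 members were chosen by function from the textbook pathway, with earlier results of these data known. A member was measured through probe sets that the platform annotation assigns to its symbol alone. Such probe sets existed for 39 of the 41 members, out of 18193 genes on the array. Xylt1 and Ndst1 had none and were not analysed here. Messenger RNA was measured on Affymetrix Mouse Genome 430 2.0 arrays in cultured rib chondrocytes of mice aged 5 days, with 1 array from a miR-140 knockout culture and 1 array from a wild-type culture. Both carried a strain label that names C57BL/6 and CBA. How the knockout allele was made, how many animals entered a culture and their sex are not given in the sources used here. By its design text, the study looked for messenger RNAs that miR-140 may target.

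A glycosaminoglycan chain starts on a serine of a core protein with a short linkage sugar sequence, which is then extended either to chondroitin or to heparan. The growing chain is sulphated in the Golgi from the donor PAPS, and in chondroitin part of the glucuronic acid can be epimerised, which gives dermatan. Chondroitin sulphate on aggrecan gives cartilage its fixed charge and its water content, while heparan sulphate chains bind growth factors. In humans and mice, loss of the sulphate transporter, of PAPS synthesis or of chondroitin enzymes causes skeletal dysplasia.

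The knockout lacked miR-140, a microRNA made in chondrocytes from an intron of Wwp2. Its hairpin gives 2 mature strands, miR-140-5p and miR-140-3p. The 3p sequence is shown because it is a product of the gene that separates the groups, with the seed (bases 2 to 8) in capitals, from RefSeq on GRCm38.p6 (plus strand of chr8:107551288-107551308).
mmu-miR-140-3p: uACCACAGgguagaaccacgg
The array does not measure either strand, and no target sites in the members were searched, because no transcript sequences were used here.

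With a single array in each group the spread between replicate cultures is unknown, so no test was made. Each difference below is the log2 signal in the knockout array minus that in the wild-type array, and it describes this pair of cultures. A gene was read by its brightest probe set, judged over both arrays, and a gene was compared if its log2 signal was 7 or more in either array. This floor kept 34 of the 39 measured members and 9897 genes in all. Since the signal of a probe set depends on its probes, no level is compared between genes. In RNA from a whole culture, fewer cells of a type and less RNA per cell cannot be told apart.

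The 4 largest differences among the compared members lay in sulphate supply and in chondroitin synthesis, and all 4 were towards lower signal in the knockout array. Slc26a2, which brings sulphate into the cell, was 3.53-fold lower, Papss2, which makes the sulphate donor, 2.76-fold lower, and Chst11, which sulphates chondroitin, 2.20-fold lower. Csgalnact1, which starts the chondroitin chain, and Glce, which epimerises heparan, were 2.00-fold and 1.78-fold lower. The enzymes that start or polymerise heparan differed by 1.12-fold or less. No member was 1.5-fold higher in the knockout array, and the members with the highest differences were Sulf1 (0.40) and Hs2st1 (0.38), both acting on heparan.

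Because the members were chosen with earlier results of these data known, the shares given here only describe the list. In counts, 3 of the 34 compared members (8.82%) were at least 2-fold lower, against 1.22% of all compared genes. At least 1.5-fold lower signal was found for 5 members (14.7%), against 3.56% of all compared genes. None was 2-fold or 1.5-fold higher, where 0.475% and 1.56% of all compared genes were. Lower signal of any size was found for 24 of the 34 (70.6%), against 59.2% of all compared genes. That count was 22 with median or lowess centring of the arrays, where 49.99% and 50.4% of all compared genes were lower, and 23 with a further quantile normalization, where 55.1% were. The median of the compared members was -0.09, close to the -0.05 of all compared genes. In its median the list was thus near the background. Its lower tail held 5 genes, which lay below the central 95% of all compared genes (-0.69 to 0.47). No member lay above that range.

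**Figure D1:**
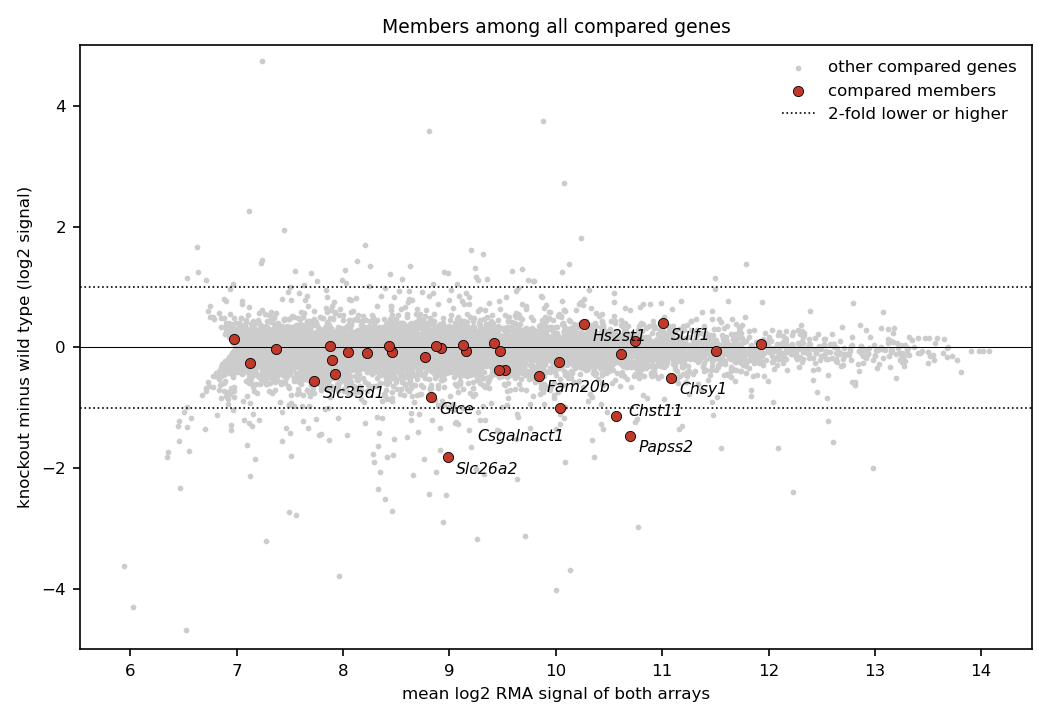
Knockout minus wild-type difference (log2 signal) of every compared gene against its mean log2 signal in both arrays; red points are the 34 compared members and dotted lines mark 2-fold. Slc26a2, Papss2 and Chst11 lie past 2-fold lower, Csgalnact1 lies on the line, and no member lies past 2-fold higher.

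The same arrays differed in markers of cell type. All 16 compared chondrocyte markers of 17 listed had lower signal in the knockout array, against 59.2% of all compared genes, with a median of -2.05. The linear signal summed over all 17 was 20554 in the knockout array and 77991 in the wild-type array. Of 17 compared fibroblast and perichondrium markers, of 23 listed, 14 were higher, against 3957 of all 9897 compared genes, with a median of 0.27. The linear signal summed over the 22 measured markers was 60226 in the knockout array and 49984 in the wild-type array. Acan (-4.03) and Col9a2 (-3.80) were farthest in the first list, and Col3a1 (1.38) and Postn (-1.26) in the second. Both arrays still held chondrocyte signal, with Col2a1 at 11.98 in the knockout array and 13.98 in the wild-type array and Sox9 at 7.78 and 8.96 in the same order. Xist was higher (3.59) and the Y-linked Eif2s3y (-4.68) and Uty (-4.30) were lower in the knockout array, and 3 control probe sets for 18S ribosomal RNA had a median of -0.52. The part of these differences in the members' values was not tested.

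Sulphate enters the cell by transporters and is activated to PAPS, while UDP-sugars are made in the cytosol and carried into the secretory pathway. Slc26a2, the sulphate transporter whose loss in humans causes diastrophic dysplasia, had a log2 signal of 8.08 in the knockout array and 9.89 in the wild-type array, a difference of -1.82. It ranked 35 from the lowest of 9897 genes. Its 2 other probe sets differed by -1.84 and -1.14, the last with a knockout signal of 6.68, below the floor. That difference is -0.82 once the knockout signal is set to the floor of 7. All 3 probe sets of the gene read lower in the knockout array, and the 2 with both signals above the floor read more than 2-fold lower.

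Papss1 and Papss2 each encode a PAPS synthase, an enzyme that joins sulphate to ATP and then phosphorylates the product. Papss2, the form linked to skeletal dysplasia in humans, had a signal of 9.97 in the knockout array and 11.43 in the wild-type array, a difference of -1.46 at rank 56 from the lowest. Of its other probe sets, 2 above the floor gave -1.05 and -0.88 and 1 under the floor gave 0.22, which brings the mean of all 4 to -0.79. Papss1 had a signal of 9.33 in the knockout array and 9.71 in the wild-type array, a difference of -0.38 (1.30-fold lower). Both synthase genes were lower in the knockout array, and the difference of Papss2 was larger than that of Papss1 on each of its 3 probe sets above the floor.

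Because these paralogues differed in size, their promoter windows are shown for comparison (250 bases before to 50 after an annotated start, RefSeq, GRCm38.p6). Each gene has 2 such windows, and the one printed is that which holds the letters AACAAT, the core of sites for SOX transcription factors, searched on both strands. Both matches are on the minus strand, so they read ATTGTT here, and they are in capitals. The Papss2 window lies at chr19:32619755-32620054 and the Papss1 window at chr3:131565782-131566081, both on the plus strand.
Papss2: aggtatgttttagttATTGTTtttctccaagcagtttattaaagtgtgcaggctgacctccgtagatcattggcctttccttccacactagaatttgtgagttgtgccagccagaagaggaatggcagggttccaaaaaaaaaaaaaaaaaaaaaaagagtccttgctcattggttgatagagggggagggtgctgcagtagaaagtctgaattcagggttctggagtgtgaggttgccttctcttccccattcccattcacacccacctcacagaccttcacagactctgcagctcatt
Papss1: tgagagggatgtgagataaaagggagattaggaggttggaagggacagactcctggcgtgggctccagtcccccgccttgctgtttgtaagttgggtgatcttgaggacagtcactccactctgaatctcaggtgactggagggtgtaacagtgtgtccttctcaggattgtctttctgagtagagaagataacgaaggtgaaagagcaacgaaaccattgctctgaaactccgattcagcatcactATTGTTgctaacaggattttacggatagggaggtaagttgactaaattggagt
The first base of the match is at -235 from the start in Papss2 and at -3 in Papss1. The windows have a GC content of 44.3% in Papss2 and 47.3% in Papss1, and the other window of each gene, without a match, has 66.3%. The letters occur in 10.7% of all 32851 promoter windows in the RefSeq table and in 3 of the 41 windows found for 33 members (7.32%), the third being a window of Extl2. A match describes these letters only, and the windows of Chst11 and Glce hold none. No windows of Slc26a2 and Csgalnact1 were searched here.

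Among the UDP-sugar genes, Slc35d1, which carries UDP-glucuronic acid and UDP-N-acetylgalactosamine into the endoplasmic reticulum, had a signal of 7.45 in the knockout array and 8.01 in the wild-type array. Its difference of -0.56 is a 1.48-fold lower signal, just short of 1.5-fold and inside the central 95% of all compared genes. A further probe set of Slc35d1, under the floor, gave -0.10, which brings the mean of both to -0.33. Ugdh, which makes UDP-glucuronic acid, read 11.48 in the knockout array and 11.54 in the wild-type array (-0.05), close to the median of all compared genes. Uxs1, which turns that sugar into UDP-xylose, stood at -0.01, with a further probe set at 0.03. The 6 supply genes had a median of -0.47. All 6 were on the lower side as deposited and 5 of 6 after each of 3 centring or normalization alternatives, in which Uxs1 turned to the higher side. Among all compared genes 59.2% were lower as deposited and 49.99% to 55.1% in those alternatives. Slc26a2 and Papss2 therefore stood lower, and Papss1 and the nucleotide sugar carrier Slc35d1 did so by less. The enzymes that make UDP-glucuronic acid and UDP-xylose read almost alike in both arrays.

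**Figure D2:**
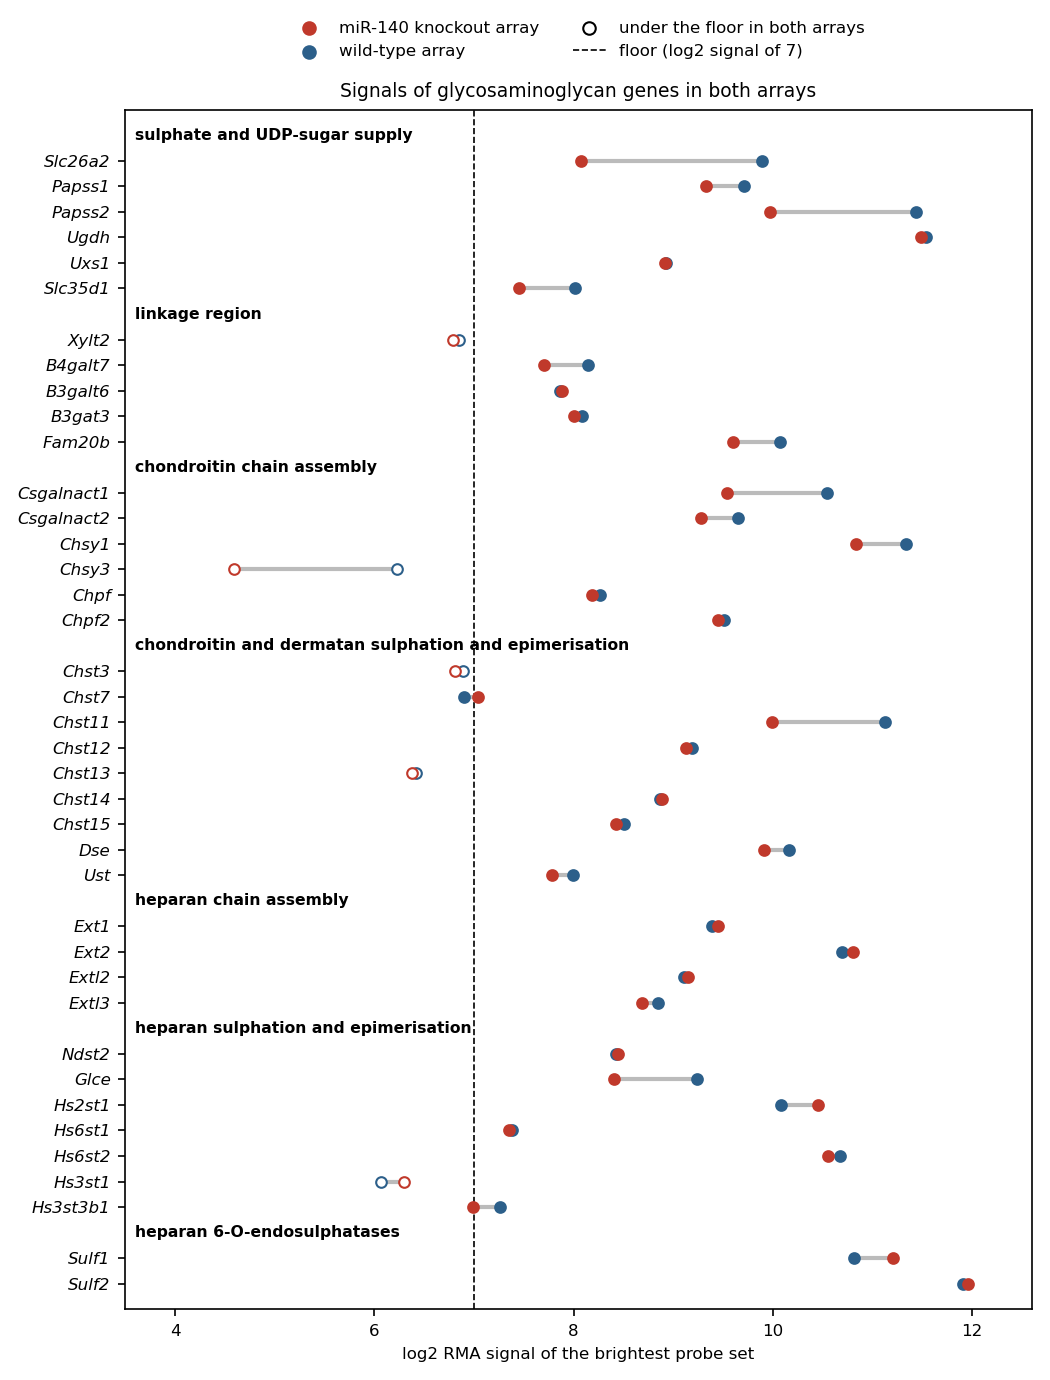
Log2 RMA signal of the brightest probe set of the 39 measured members in the knockout array (red) and the wild-type array (blue), grouped by pathway step; open circles are the 5 members under the floor of 7 (dashed line) in both arrays. The widest gaps above the floor, all with the knockout at the lower end, belong to Slc26a2, Papss2, Chst11, Csgalnact1 and Glce; signals of different genes are not comparable.

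The linkage region is common to chondroitin and heparan chains. Fam20b, the kinase that phosphorylates its xylose, had a signal of 9.60 in the knockout array and 10.07 in the wild-type array, a difference of -0.47, but a second probe set read 7.81 and 7.82 (0.00). B4galt7, which adds the first galactose, read 7.71 in the knockout array and 8.14 in the wild-type array (-0.44), and its other probe set differed by -0.45. The galactosyltransferase gene B3galt6 stood at 0.03 and the glucuronyltransferase gene B3gat3, which completes the linkage, at -0.08. The lower signal of B4galt7 was therefore seen on both of its probe sets, and that of Fam20b on 1 of 2. Xylt2, a xylosyltransferase that starts the linkage, stayed under the floor at 6.79 in the knockout array and 6.85 in the wild-type array. The 4 compared linkage genes had a median of -0.26, which ranged from -0.44 with a floor of 8 to -0.08 with a floor of 6.

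Chondroitin chains are started by N-acetylgalactosaminyltransferases and lengthened by synthases that work with polymerising factors. All 5 compared genes of this step were lower in the knockout array, in the values as deposited and after each centring or normalization, with a median of -0.37. Of all compared genes 59.2% were lower as deposited and 49.99% to 55.1% after those alternatives. Csgalnact1, which adds the first N-acetylgalactosamine, had a signal of 9.54 in the knockout array and 10.54 in the wild-type array. Its difference of -0.998 was just short of 2-fold, at rank 122 from the lowest, and its other probe set differed by -0.43. Its paralogue Csgalnact2 read 9.28 in the knockout array and 9.65 in the wild-type array (-0.37).

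Chsy1, a chondroitin synthase, had a signal of 10.84 in the knockout array and 11.34 in the wild-type array, a difference of -0.50 (1.42-fold lower) on its only probe set. The polymerising factors Chpf (-0.09) and Chpf2 (-0.06) read almost alike in both arrays. Chsy3, a further synthase, had signals of 4.59 in the knockout array and 6.23 in the wild-type array. Both lie under the floor, so its difference of -1.64 was not counted. On the probe sets used, the enzymes that start the chain and the synthase Chsy1 thus stood lower by more than Chpf and Chpf2. Csgalnact2 and Chsy1 lay inside the central 95% of all compared genes, and this contrast was not tested.

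Sulphation of chondroitin places sulphate on carbon 4 or carbon 6 of N-acetylgalactosamine. Chst11, the chondroitin 4-O-sulphotransferase that mouse cartilage needs, had a signal of 9.99 in the knockout array and 11.13 in the wild-type array, a difference of -1.14 at rank 106 from the lowest. Its other probe set, near the floor, read 6.60 in the knockout array and 7.01 in the wild-type array (-0.41), and the mean of both was -0.78. Chst12, which has the same activity, read 9.12 in the knockout array and 9.19 in the wild-type array (-0.07). The third such enzyme, Chst13, stayed under the floor at 6.38 in the knockout array and 6.42 in the wild-type array. Of the 3 genes for 4-O-sulphation of chondroitin, Chst11 was thus the one with a lower signal past 1.5-fold.

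For 6-O-sulphation, Chst3 read 6.80 in the knockout array and 6.89 in the wild-type array, just under the floor, and Chst7 7.04 and 6.90 in the same order, just above it. The members nearest to the floor on the inside were Chst7 (7.04), Hs3st3b1 (7.26) and Hs6st1 (7.38), by the higher of their signals, and on the outside Chst3 (6.89) and Xylt2 (6.85). Chst7 differed by 0.14, or by 0.04 with low values raised to 7.

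The enzymes of dermatan and of disulphated units differed little. Dse, the epimerase that makes iduronic acid in dermatan, read 9.91 in the knockout array and 10.16 in the wild-type array (-0.25). Ust, which sulphates that iduronic acid, stood at -0.21 and Chst15, which adds a second sulphate to N-acetylgalactosamine, at -0.08. Chst14, the sulphotransferase of dermatan, stood at 0.03. Of 7 compared genes of this step 5 (71.4%) were on the lower side, against 59.2% of all compared genes, with a median of -0.08. After each centring or normalization 5 were lower as well, against 49.99% to 55.1%.

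**Figure D3:**
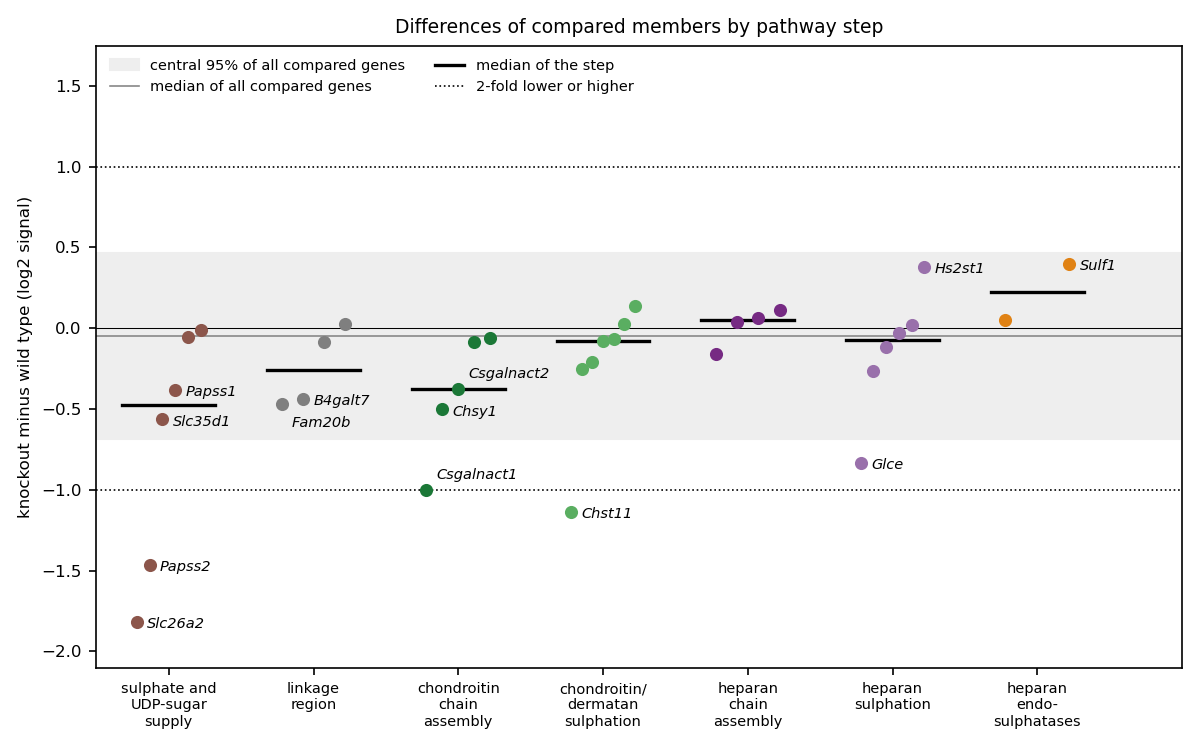
Knockout minus wild-type difference (log2 signal) of the 34 compared members by pathway step; points are genes, black bars the median of a step, the grey band the central 95% of all compared genes (-0.69 to 0.47), the grey line their median (-0.05) and dotted lines 2-fold. The points below the band are Slc26a2, Papss2, Csgalnact1, Chst11 and Glce, and the heparan chain assembly genes lie close to 0.

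Heparan chains are started by Extl3 and polymerised by the Ext1 and Ext2 complex. Ext1 had a signal of 9.45 in the knockout array and 9.38 in the wild-type array (0.06), and Ext2 10.80 and 10.69 in the same order (0.11). Extl3 read 8.69 in the knockout array and 8.85 in the wild-type array (-0.16). Its other probe set, under the floor in both arrays, differed by 0.52, which brings the average of both to 0.18. Extl2, which can cap the linkage region with N-acetylglucosamine, stood at 0.04, with its other probe set at 0.10. The 4 genes had a median of 0.05, and none reached 1.5-fold.

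In modification of heparan, Glce, which turns glucuronic into iduronic acid, was the one gene past 1.5-fold. It had a signal of 8.41 in the knockout array and 9.24 in the wild-type array, a difference of -0.83 at rank 168 from the lowest. Its other probe sets stayed under the floor, and 1 of them differed by 0.46. Hs2st1, the sulphotransferase that acts on the iduronic acid made by Glce, went the other way, with a signal of 10.46 in the knockout array and 10.08 in the wild-type array (0.38). All 4 probe sets of Hs2st1 were above the floor and higher in the knockout array, by 0.08 to 0.42. On probe sets above the floor, of which Glce has 1, the epimerase and the 2-O-sulphotransferase thus differed in direction in this pair of arrays.

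On the probe set used, the other compared sulphotransferases of heparan differed by less than 1.5-fold. Ndst2, which replaces acetyl by sulphate on glucosamine, stood at 0.02. For 6-O-sulphation, Hs6st1 stood at -0.03 (0.02 with median centring) and Hs6st2 at -0.11, with a further probe set at 0.38, so no direction is given for Hs6st2. Hs3st3b1, a 3-O-sulphotransferase, read 6.99 in the knockout array and 7.26 in the wild-type array (-0.26). Its other probe sets, all under the floor, differed by -0.66, -0.09 and -0.05. Hs3st1, another 3-O-sulphotransferase, stayed under the floor at 6.30 in the knockout array and 6.07 in the wild-type array. The median of the 6 compared genes was -0.07, and it was 0.08 when all probe sets were averaged per gene, where 4 remained above the floor and Glce was no longer among them.

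Sulf1 and Sulf2 are secreted enzymes that remove 6-O-sulphate from finished heparan chains. Sulf1 had a signal of 11.21 in the knockout array and 10.81 in the wild-type array, a difference of 0.40 (1.32-fold higher). A second probe set above the floor gave 0.35. Sulf2 read 11.96 in the knockout array and 11.90 in the wild-type array (0.05), and its 2 further probe sets differed by 0.04 and -0.09. Sulf1 was thus higher on both probe sets, and Sulf2 had no common direction.

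Set side by side, the 12 compared genes of the chondroitin and dermatan steps had a median of -0.15 with 10 on the lower side, and the 12 compared genes of the 3 heparan steps a median of 0.03 with 5 on the lower side. Over all compared genes 59.2% were on the lower side. After median or lowess centring the counts were 10 and 4, where 49.99% and 50.4% of all compared genes were lower. With probe sets of 1 transcript only, the heparan median was -0.01. At least 1.5-fold lower signal was found for 2 genes in the chondroitin and dermatan steps and for 1 in the heparan steps (of 12 each), against 3.56% of all compared genes. The difference between the branches was not tested.

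Over single probe sets, 51 of the 79 probe sets of the members were above the floor, and 33 of these 51 (64.7%) were lower in the knockout array, against 54.9% of all 15862 such probe sets with 1 symbol. More than 1 such probe set was found for 12 members. Probe sets of both signs were found for 3 of the 12, Uxs1, Hs6st2 and Sulf2, which lay close to 0 on the probe set used.

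**Figure D4:**
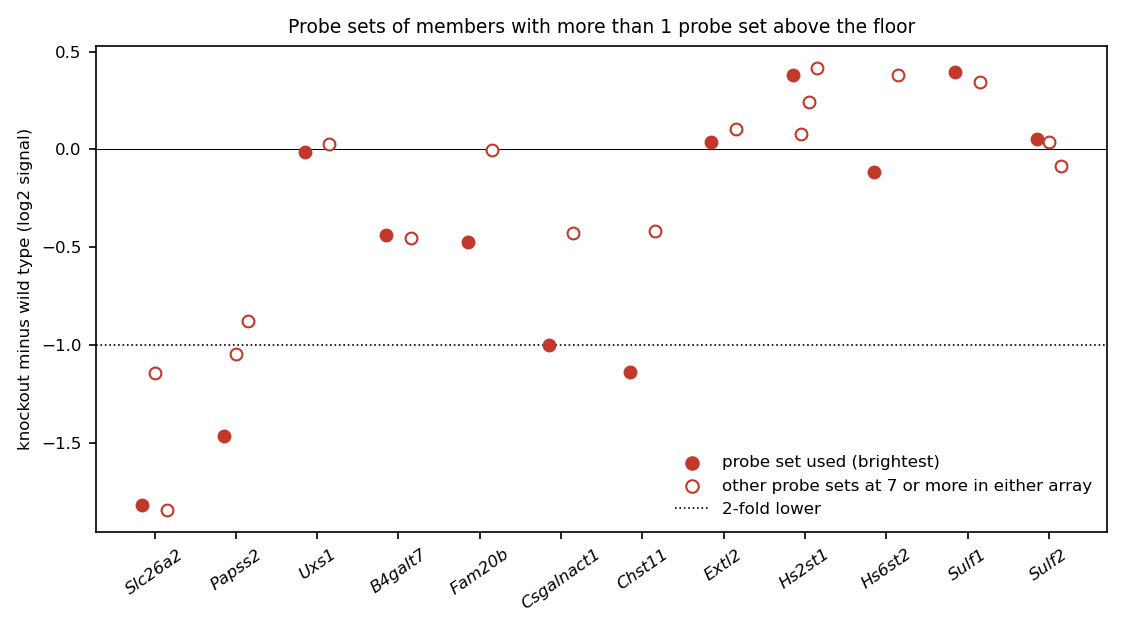
Knockout minus wild-type difference (log2 signal) of each probe set at 7 or more in either array, for the 12 members with more than 1; filled points are the probe set used for the gene and open points the others. All 3 probe sets of Slc26a2 lie below the 2-fold line, 1 of them with a knockout signal under the floor, the second probe sets of Csgalnact1 and Chst11 lie near -0.4, and all 4 of Hs2st1 lie above 0.

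Other genes of glycosaminoglycan metabolism were listed for context. Among 12 compared genes for precursor and PAPS supply outside the members, all 12 were on the lower side as deposited, with a median of -0.18, against 59.2% of all compared genes. After median centring 10 of the 12 were lower, against 49.99% of all compared genes. When all probe sets were averaged per gene 7 of 9 were lower, against 53.8%, with a median of -0.11. The farthest were Gfpt2 (-0.67) and Gfpt1 (-0.53), which commit fructose 6-phosphate to hexosamine synthesis, and Ugp2 (-0.54), which makes UDP-glucose. With the mean of all its probe sets Gfpt1 stood at -0.11. At least 1.5-fold lower signal was found for Gfpt2 alone. Among the smaller differences of that list were Slc35b2 (-0.10, with a further probe set at -0.59) and Slc35b3 (-0.05). Bpnt1 stood at -0.004, with a further probe set at 0.22.

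Of the core proteins that carry chondroitin or dermatan sulphate, 7 of 10 compared were lower, against 59.2% of all compared genes, with a median of -0.28. At least 2-fold lower were 4 of the 10, against 1.22% of all compared genes. They include Acan, which read 7.99 in the knockout array and 12.02 in the wild-type array, Col9a2 (-3.80, with a knockout signal under the floor) and Snorc (-2.89). These 3 are also in the list of chondrocyte markers, and their differences were larger in size than that of any compared member. Of 12 compared heparan sulphate core proteins, 6 were lower and 6 higher, with a median of 0.08. Gpc6, a glypican, stood at -0.93, with a further probe set at -0.18. Agrn stood at -0.51, or at -0.16 with the mean of all its probe sets. Sdc4 stood at -0.47, with a further probe set at 0.11.

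Lysosomal enzymes that degrade the chains had a median of 0.01 over 12 genes, 6 lower and 6 higher, with Hgsnat at -0.41, Glb1 at 0.34 and Ids at -0.34. With the mean of all its probe sets Ids stood at 0.02. Of 5 compared keratan sulphate genes St3gal2 stood at 0.43, Chst1 at -0.32 and B4galt1 at 0.23, with a median of 0.16. Probe sets of St3gal2 above the floor ranged from 0.04 to 0.63. Of 4 compared chain enzymes outside the members, Extl1 stood at -0.86 with a knockout signal of 6.49, under the floor, Pxylp1 at -0.16 and Dsel at 0.10, with a median of -0.07. The 3 hyaluronan synthase genes stayed under the floor. Degradation genes thus showed no common direction.

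**Figure D5:**
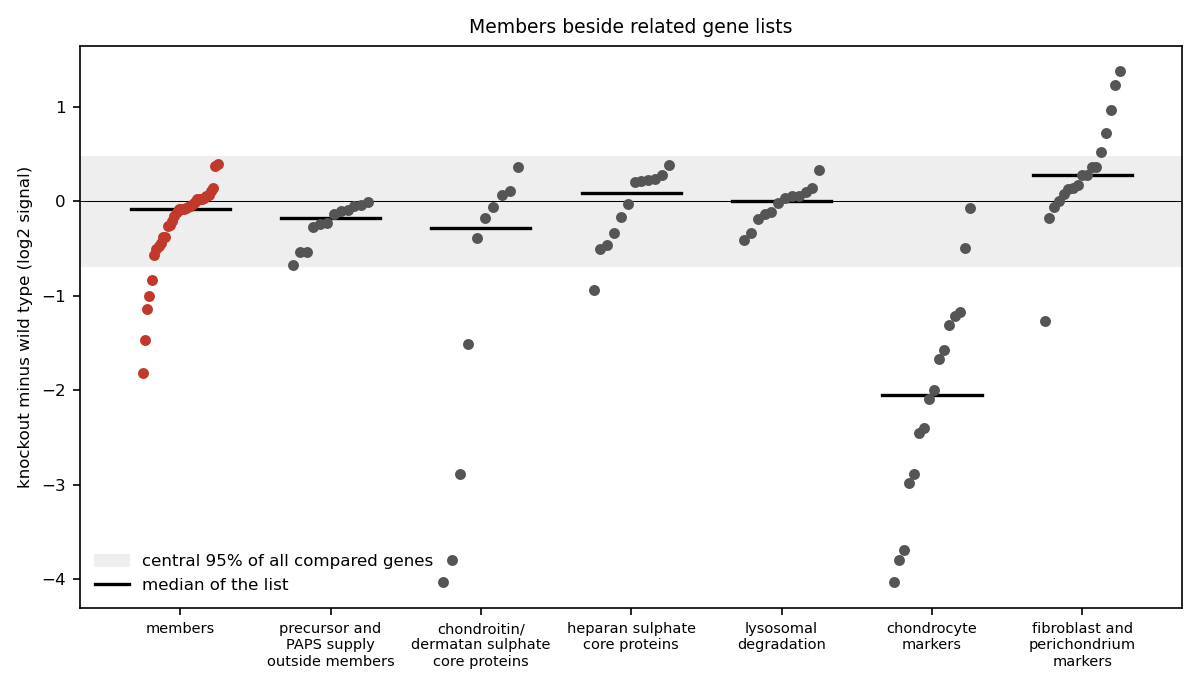
Knockout minus wild-type difference (log2 signal) of the compared members (red) beside related gene lists (grey points are genes, black bars medians, the grey band the central 95% of all compared genes). The chondrocyte markers have a median of -2.05, the fibroblast and perichondrium markers of 0.27 and the members of -0.09; some genes, such as Acan, are in more than 1 list.

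Of the 6 measured osteoblast markers none reached the floor. Of 5 compared macrophage and leukocyte markers, Cd14 stood at 0.36 and Adgre1 at -0.19, with a median of 0.01, and the defining marker Ptprc stayed under the floor. In the endothelial list Kdr was the 1 gene compared (-0.06) and in the skeletal muscle list Des (0.14). Of the 4 compared adipocyte markers 2 were higher and 2 lower, with a median of 0.16. Lpl stood at 1.11, with 9.83 in the knockout array and 8.72 in the wild-type array. Fabp4 stood at 0.51, and both genes lay above the central 95% of all compared genes. Cebpa (-0.48) and Pparg (-0.18) were the lower ones, both inside that range. The part of these markers in the members' values was not tested.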

How the data were processed

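Log2 signals of 45101 probe sets were deposited for 2 arrays. The authors summarised these log2 values by RMA, a method that corrects background and normalizes arrays to a common distribution (per the labels' design text; Affymetrix Expression Console 1.1, per the submitters' processing notes). No label names the log scale; values between 3.24 and 14.2 fit log2. Once sorted, the arrays lie within 0.157 of each other, so a shift common to most genes cannot be seen.

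Groups came from sample titles. Symbols came from the platform annotation: 34945 probe sets had 1 symbol, 932 had several and 9160 were unlisted (both unnamed here), and 64 are controls, which were left out. Among the 34945, 34741 had an Entrez identifier that matched RefSeq (GRCm38.p6), and no symbol changed. Per gene the brightest probe set was kept, with a floor of log2 7 in either array. Differences, counts and medians were computed in Python 3.11.15 with pandas 2.3.3, and the counting was tested on simulated data. With 1 array per group no test was possible, and precision is limited by the number of arrays. All members are reported, with the 3 farthest genes of each other pathway list and the 2 farthest of each marker list. Col2a1, Sox9 and Ptprc were added as defining markers, and Cebpa and Pparg as the lower adipocyte markers. Slc35b2, Slc35b3 and Bpnt1 were added from the list for precursor and PAPS supply. The members and lists were chosen with earlier results of these data known. Alternatives were 3 centring or normalization methods, floors of 6 and 8 and none, the mean of all probe sets, probe sets of 1 transcript only, and low values raised to 7. Leaving out X-linked members was added after the data were seen.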

Additional observations from a re-analysis of the deposited data

How the results depend on the processing

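Averaging all probe sets of a gene moved the counts most. It left 1 of 30 compared members at least 2-fold lower (Slc26a2) instead of 3 of 34. In that setting 1.15% of all compared genes were 2-fold lower. Averaging also moved the median of the supply step to -0.36, of the linkage region to -0.14 and of heparan sulphation to 0.081. That mean includes probe sets under the floor. The linkage median was -0.084 with a floor of 6 and with no floor, which add Xylt2, and -0.44 with a floor of 8. The count of members at least 1.5-fold lower ran from 4 to 6 over all alternatives and none was 1.5-fold higher in any. It was 4 of 30 with the mean of all probe sets, against 2.90% of all compared genes. With a floor of 6 and with no floor it was 6 of 39, against 3.08% and 2.34%. Leaving out the X-linked Chst7 and Hs6st2, chosen after seeing the data, changed none of the counts past 2-fold or 1.5-fold. A sign change in at least 1 alternative was found for 7 of 34 members, whose main differences were at most 0.161 in size. No paired analysis was possible because each group has 1 array. A median or a single difference was said to move when it shifted by over 0.1, since no replicate spread exists. A count was said to move when it changed by more than 1.5-fold. Signals near the floor understate or misstate differences.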
